A study of Mus musculus with 30 samples.

Results

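Crotonylated lysine (Kcr) and acetylated lysine (Kac) on histones were compared in mouse neural stem and progenitor cells (NSPCs) that had been treated with MS-275. The 2 peak lists of MS-275-treated cells hold 5845 Kcr peaks and 7555 Kac peaks, which is 13400 of the 128515 peaks in the 8 lists of the series. A Kcr peak and a Kac peak were counted as shared when they overlapped by 1 bp or more. Overlapping peaks were then merged into places, which gave 11517 places in all. Of these, 1782 carried both marks (shared places), 4026 carried Kcr alone and 5709 carried Kac alone.

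The NSPCs came from the C57BL/6 strain. They were isolated from the E13.5 embryonic forebrain, grown with 20 ng/ml each of epidermal growth factor and fibroblast growth factor, and treated for 24 h. The protocol gives passage 2 to 3, whereas a sample label gives P1-P3. The treatments were 1 µM MS-275, 10 mM crotonate, and the solvent DMSO as control, so all 3 groups share the growth factors and the culture. Chromatin immunoprecipitation sequencing (ChIP-seq) was done in 1 library per mark and treatment, and RNA was sequenced in 4 biological replicates per treatment. The NSPC antibodies were pan-Kcr and pan-Kac, so no lysine position is given, whereas 2 lists from untreated forebrain are for histone H3 lysine 9 (H3K9cr and H3K9ac). The read depth of the ChIP libraries is unknown, and 1 library per mark allows no test between marks. The binomial intervals below cover the counting error of the peaks only.

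Histone lysines are acetylated and crotonylated largely by the same acyltransferases, among them p300 and CBP, from acetyl-CoA and crotonyl-CoA. Class I histone deacetylases remove both groups, and MS-275 (entinostat) is an inhibitor of these enzymes. Both marks are known from the flanks of active gene starts and from enhancers. Bromodomain proteins bind acetyl-lysine, and YEATS and double PHD finger domains bind crotonyl-lysine with preference. MS-275 raises bulk histone acylation in many cells, while a peak list records only where a signal stands out from its surroundings.

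The following 4 promoter windows show where the marks lay relative to a gene start and are printed because a peak of MS-275-treated cells reached into each of them. Each runs 5′ to 3′ from 250 bases before the start to 50 bases after it, and the sequences and starts are those of RefSeq on GRCm38.p6. Capitals mark the bases under both a Kcr and a Kac peak for the shared places of Fabp3 and Ewsr1, under the Kcr peak for Rplp2 and under the Kac peak for Rps26.
Fabp3, chr4:130308488-130308787, plus strand: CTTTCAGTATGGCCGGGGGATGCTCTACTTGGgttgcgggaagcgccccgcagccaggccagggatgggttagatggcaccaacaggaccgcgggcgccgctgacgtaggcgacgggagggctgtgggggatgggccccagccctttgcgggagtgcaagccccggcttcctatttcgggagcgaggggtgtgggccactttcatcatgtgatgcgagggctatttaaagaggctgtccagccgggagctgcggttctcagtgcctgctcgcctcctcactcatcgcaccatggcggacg
Ewsr1, chr11:5099047-5099346, minus strand: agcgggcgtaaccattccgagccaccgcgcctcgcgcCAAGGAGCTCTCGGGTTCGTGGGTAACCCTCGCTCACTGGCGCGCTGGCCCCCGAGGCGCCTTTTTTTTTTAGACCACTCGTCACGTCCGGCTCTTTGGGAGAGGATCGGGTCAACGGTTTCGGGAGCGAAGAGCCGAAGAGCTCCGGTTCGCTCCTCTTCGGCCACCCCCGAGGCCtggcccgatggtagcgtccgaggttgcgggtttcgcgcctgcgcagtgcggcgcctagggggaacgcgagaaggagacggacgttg
Rplp2, chr7:141447401-141447700, plus strand: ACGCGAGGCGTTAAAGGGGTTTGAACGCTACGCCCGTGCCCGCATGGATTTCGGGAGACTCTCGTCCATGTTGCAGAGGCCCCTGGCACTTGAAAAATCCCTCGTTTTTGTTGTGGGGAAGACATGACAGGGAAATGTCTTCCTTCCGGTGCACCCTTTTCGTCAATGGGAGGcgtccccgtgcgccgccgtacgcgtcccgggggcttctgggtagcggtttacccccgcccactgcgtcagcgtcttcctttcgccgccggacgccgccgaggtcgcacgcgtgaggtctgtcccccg
Rps26, chr10:128626457-128626756, minus strand: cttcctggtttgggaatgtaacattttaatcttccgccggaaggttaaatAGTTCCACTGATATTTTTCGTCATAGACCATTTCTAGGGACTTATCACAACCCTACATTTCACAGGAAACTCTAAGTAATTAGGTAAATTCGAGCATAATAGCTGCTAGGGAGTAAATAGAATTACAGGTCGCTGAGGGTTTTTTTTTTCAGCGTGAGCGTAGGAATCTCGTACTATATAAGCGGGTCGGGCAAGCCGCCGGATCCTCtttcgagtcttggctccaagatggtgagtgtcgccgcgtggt

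Both peaks at Fabp3, which encodes a fatty acid-binding protein, lay upstream of the start. The Kac peak ended 79 bp from it and the Kcr peak 219 bp from it, so that 32 bases of the window were under both. Ewsr1 encodes an RNA-binding protein. Its Kcr peak covered the start itself, a Kac peak lay 37 bp upstream, and 177 bases of the window were under both. At Rplp2, a ribosomal stalk protein gene, the Kcr peak lay upstream and covered 173 bases, with the nearest Kac peak 20790 bp away. At Rps26, which encodes a protein of the small ribosomal subunit, the Kac peak covered the start and 208 bases, with the nearest Kcr peak 42456 bp away. RNA levels are in TPM, a relative abundance corrected for transcript length. RNA of Ewsr1 fell, with 369, 388, 381 and 369 TPM in the MS-275 libraries, against 472, 488, 482 and 478 TPM in the control libraries (log2 fold change -0.35 ± 0.03 SE, limma adjusted p = 1.71e-07), while Rplp2 and Rps26 did not pass the test (limma adjusted p = 0.580 and 0.381), Rps26 only with median-of-ratios scaling (adjusted p = 0.0142). In Ckb, Actg1, Mdfi, Fabp7 and Npas1, which stand out by level or by change of RNA, no peak of the class reached the window. Such coverage was the exception: a peak of the class's own mark reached the window in 193 of 734 genes with a shared place (26.3%, counting bases under both marks), in 390 of 1202 genes with Kcr alone (32.4%) and in 601 of 1409 genes with Kac alone (42.7%).

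Most peaks of either mark had no partner after MS-275. Of the Kcr peaks, 1819 overlapped a Kac peak (31.1%, 95% exact Clopper-Pearson interval 29.9 to 32.3%), and of the Kac peaks, 1846 overlapped a Kcr peak (24.4%, 23.5 to 25.4%). After crotonate, 62.0% of 23301 Kcr peaks and 64.6% of 21616 Kac peaks were shared, and in control cells 80.7% of 17669 Kcr peaks and 59.5% of 23427 Kac peaks were. The share was thus lower after MS-275 than in the other treatments for both marks, by more than the counting error. The MS-275 lists were also the shortest, and the part of list length and of the unknown depth in the lower share was not tested. In bases, 0.413 Mb lay under both marks, which is 22.4% of the 1.84 Mb under Kcr peaks and 18.2% of the 2.26 Mb under Kac peaks.

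**Figure D1:**
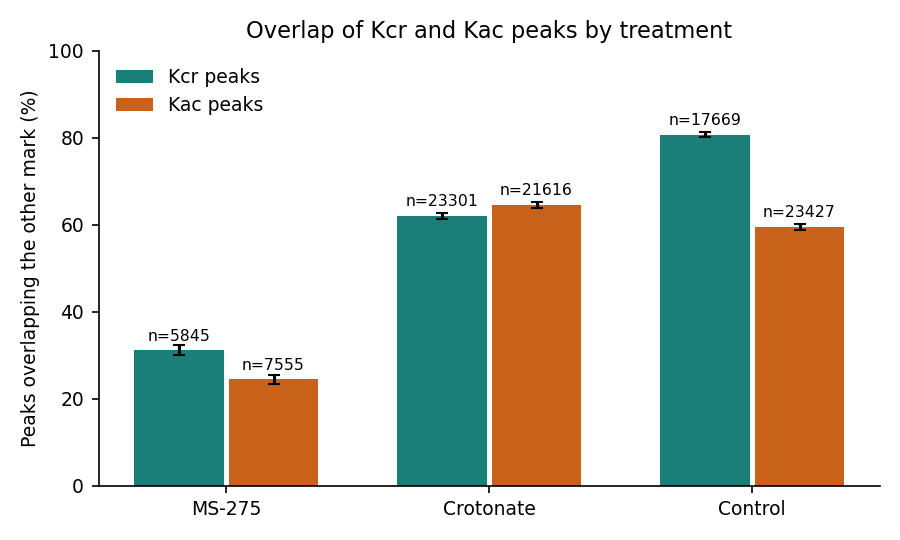
Bars give the percentage of Kcr peaks (green) and Kac peaks (orange) that overlap a peak of the other mark by at least 1 bp in NSPCs after MS-275, crotonate or control treatment, with 95% exact binomial intervals and the number of peaks in each list. The MS-275 bars, at 31.1% and 24.4%, are the lowest of the 6.

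Where the marks met, the peaks largely coincided but were offset. Among 1883 overlapping pairs the median overlap was 219 bp (quartiles 161 and 269 bp), and the median distance between centres was 93.5 bp. In 1302 pairs (69.1%) each peak extended past the other on one side, in 293 pairs (15.6%) the Kcr peak lay inside the Kac peak, and in 288 pairs (15.3%) the Kac peak lay inside the Kcr peak. Peaks without a partner were usually far from the other mark. The median gap from a lone Kcr peak to the nearest Kac peak was 23.1 kb, and from a lone Kac peak to the nearest Kcr peak 28.1 kb, whereas in control cells these gaps were 0.527 kb and 1.63 kb. The lists after MS-275 were shorter, with 7555 Kac and 5845 Kcr peaks, against 23427 and 17669 in control cells. A shorter list leaves longer gaps, and the part of list length in the gaps was not tested. After MS-275, 641 lone Kcr peaks (15.9%) and 769 lone Kac peaks (13.47%) had the other mark within 500 bp.

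Peaks were narrow, and shared peaks were wider than lone ones for both marks. The median width was 310 bp for shared Kcr peaks (n = 1819), against 272 bp for lone Kcr peaks (n = 4026). For Kac it was 296 bp for shared peaks (n = 1846), against 253 bp for lone peaks (n = 5709). At 500 bp or more were 11.1% of shared Kcr peaks, against 3.55% of lone ones, and 13.1% of shared Kac peaks, against 3.61% of lone ones. A wider peak has more bases with which to meet another, and the narrowest width allowed differed between the lists. It was 227 bp for Kcr, the width of 680 peaks, and 201 bp for Kac, the width of 832 peaks. The widths of Kcr and Kac peaks are therefore not compared with each other.

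**Figure D2:**
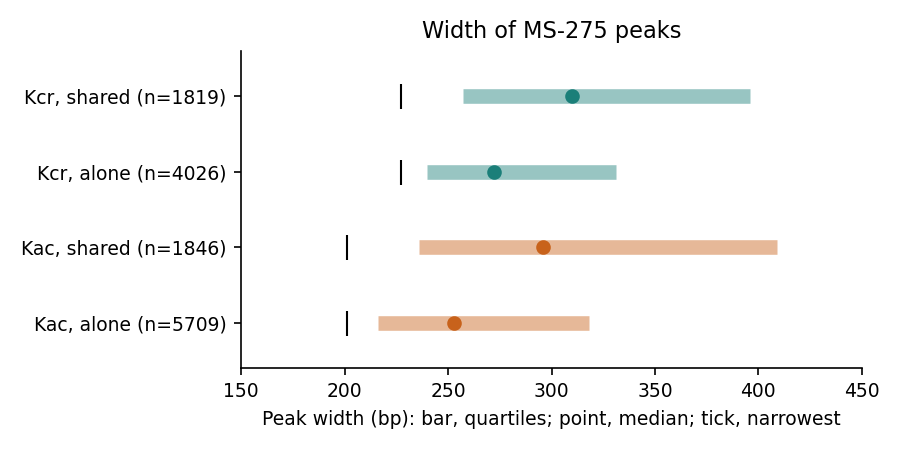
Width in bp of peaks in MS-275-treated NSPCs, for shared and lone peaks of each mark. Bars span the quartiles, points are medians (310 and 272 bp for Kcr, 296 and 253 bp for Kac) and ticks are the narrowest peak of the list.

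The 4 widest shared places measured 2170, 1808, 1486 and 1481 bp. The widest, chr17:25555339-25557508 (GRCm38), lay outside genes and 13178 bp from the start of Sox8, a transcription factor gene of glial and neural crest cells, and merged 1 Kcr with 2 Kac peaks. The next lay outside genes, 8452 bp from Spata3. The third, chr2:26535913-26537398, merged 2 peaks of each mark outside genes, 32091 bp from Notch1, the receptor that keeps neural progenitors undifferentiated. The fourth, chr17:65771148-65772628, lay 124 bp from the start of Rab31, a vesicle-transport GTPase. Rab31 RNA was at 493, 512, 488 and 515 TPM in the MS-275 libraries, against 372, 384, 362 and 381 TPM in the control libraries.

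The widest lone Kcr places were 963, 820, 809 and 782 bp wide. That of 963 bp, chr5:106964035-106964997, covered the start of Cdc7, a kinase that fires replication origins, and that of 782 bp covered an end of Grk3, a receptor kinase gene. Those of 820 and 809 bp lay within genes, with Sez6l and Bhlhe40 nearest. The widest lone Kac places were 1393, 912, 871 and 858 bp wide. The first lay within a gene, 18189 bp from Traf3ip2, and the others lay 45 bp from the start of Fblim1, 265 bp from the start of Nr2e1 and 155 bp from the start of Dglucy. Nr2e1 encodes TLX, a nuclear receptor of neural stem cells.

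Near gene starts the shares of shared and of lone Kcr places had overlapping intervals, and the share of lone Kac places lay below both intervals. Within 1 kb of a start were 857 shared places (48.1%, 95% exact interval 45.7 to 50.4%), 1904 lone Kcr places (47.3%, 45.7 to 48.8%) and 2333 lone Kac places (40.9%, 39.6 to 42.2%). Where the annotation gave no strand, both ends of the gene stood in for its start. The remaining places fell within genes in 28.1%, 30.3% and 29.5% of these 3 kinds, in the same order, and outside genes in 23.8%, 22.4% and 29.6%. In control cells the shared peaks of both marks lay near starts more often, at 69.7% for Kcr and 70.0% for Kac, than lone peaks, at 51.0% for Kcr and 46.8% for Kac. After MS-275 the same 4 shares were 47.2% and 47.2% for shared Kcr and Kac peaks, against 47.3% and 40.9% for lone ones.

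Lone Kcr and shared places leaned to the transcribed side of the start more than lone Kac places did, and this was not tested. Among places whose centre lay within 1 kb of a start of known strand, 63.3% of 657 shared places, 65.1% of 1487 lone Kcr places and 55.9% of 1793 lone Kac places were downstream. The median centre was 201 bp, 219 bp and 118 bp downstream for the 3 kinds. In the window from 250 to 500 bp downstream were 22.4% of shared, 25.2% of lone Kcr and 17.1% of lone Kac places that lay within 2 kb of a start. In the window from 500 to 250 bp upstream these shares were 12.7%, 12.3% and 17.9%. The 250 bp just upstream of the start held fewer places of all 3 kinds (8.93%, 9.33% and 11.1%) than the windows on either side of it.

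**Figure D3:**
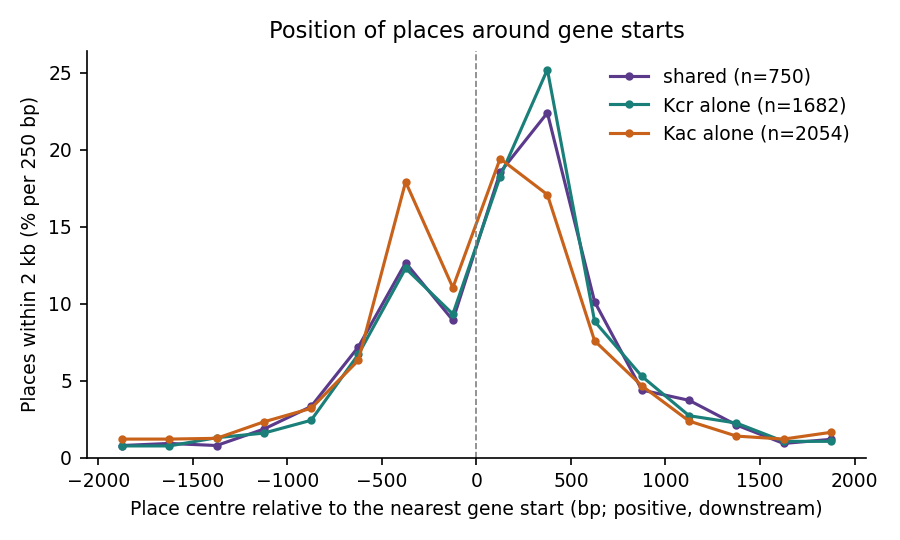
Position of the centres of shared (purple), lone Kcr (green) and lone Kac places (orange) relative to the nearest gene start of known strand, as the percentage of the places within 2 kb in each 250 bp window. Lone Kcr and shared places peak 250 to 500 bp downstream, and all 3 kinds have a second, upstream peak 500 to 250 bp before the start, at 12.7%, 12.3% and 17.9%.

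Most MS-275 places coincided with peaks of the other lists, shared places most often. Shared places were also wider, with a median of 438.5 bp, against 272 bp for lone Kcr and 253 bp for lone Kac places. A wider place meets another list more readily, and the part of width was not tested. A control peak of either mark overlapped 83.1% of shared places, 56.4% of lone Kcr places and 63.4% of lone Kac places. Among lone Kcr places, 37.5% carried both marks in control cells, 13.8% Kac without Kcr and 5.09% Kcr without Kac. Among lone Kac places these shares were 42.4%, 16.1% and 4.96%. A place with a single mark after MS-275 was thus more often one with both marks in control cells than one with the same mark alone. Most peaks of the control lists were themselves shared, 80.7% for Kcr and 59.5% for Kac. Shared control peaks were also wider than lone ones, with medians of 304 and 212 bp for Kcr and 352 and 225 bp for Kac. The part of both in these shares was not tested. Lone Kcr places overlapped the control Kac list (51.3%) more often than the control Kcr list (42.6%), and the control Kac list is the longer of the pair. In none of the other 6 lists were 4.88% of shared places, 24.8% of lone Kcr places and 18.3% of lone Kac places.

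**Figure D4:**
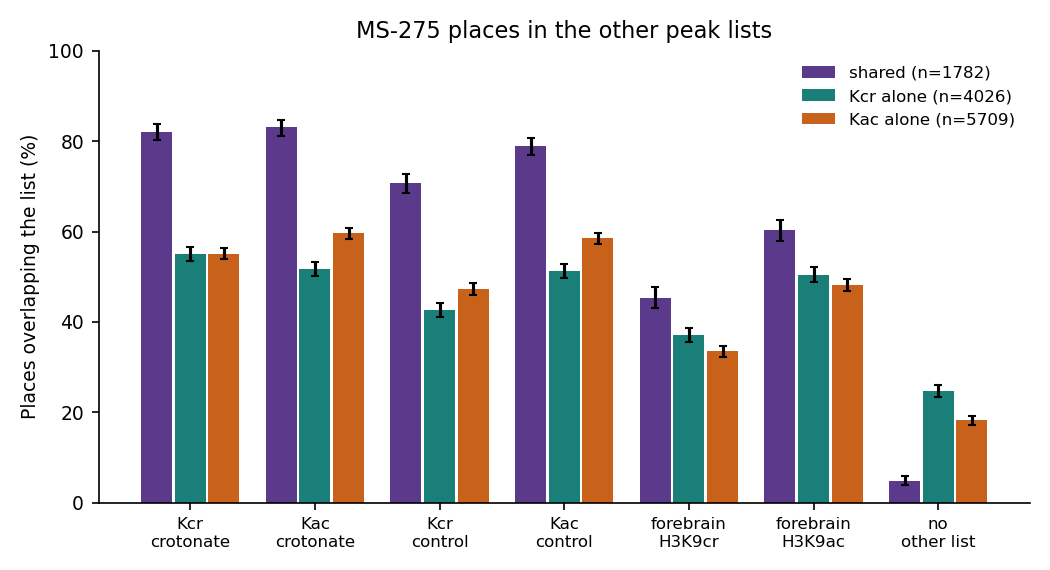
Percentage of shared (purple), lone Kcr (green) and lone Kac places (orange) of MS-275-treated NSPCs that overlap a peak of each other list, with 95% exact binomial intervals. Shared places are the most often found in all 6 lists and the least often found in no other list (4.88%). They are also wider (median 438.5 bp) than lone Kcr (272 bp) and lone Kac places (253 bp).

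The overlap with other lists was greater near starts. There a control peak was present at 87.6% of shared, 73.9% of lone Kcr and 77.5% of lone Kac places, and outside genes at 77.4%, 37.5% and 49.2%. The forebrain H3K9ac list overlapped 85.8%, 81.1% and 81.9% of the 3 kinds near starts, against 36.5%, 19.2% and 21.9% outside genes. The forebrain lists carry the authors' fold enrichment per peak. Forebrain H3K9ac peaks had a median fold enrichment of 17.8 at shared places, 17.5 at lone Kcr places, 15.4 at lone Kac places and 11.3 where no MS-275 place overlapped. For H3K9cr these medians were 10.4, 9.70, 9.16 and 7.87. The median widths of the same forebrain peaks fell in the same order, at 1519, 1417, 1323 and 976 bp for H3K9ac. For H3K9cr they were 1103, 998.5, 987 and 732 bp. A forebrain peak that met several kinds of place was counted once, as shared first, then lone Kcr, then lone Kac. The part of width and of this counting in the fold enrichments was not tested. Chromosome X held 2 of the 5845 Kcr peaks and 8 of the 7555 Kac peaks after MS-275, against 87 and 248 in control cells.

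Each gene with a position was given a class by the peaks within 1 kb of its start. A shared place lay at 935 genes, Kcr alone at 1575, Kac alone at 1864, both marks at separate places at 321, and neither at 33490 of 38185 genes. Most genes of each class had carried a shared place in control cells: 84.5% of those with a shared place after MS-275, 71.0% of those with Kcr alone and 74.9% of those with Kac alone. Among all tested genes with a position 54.1% had a shared place in control cells, while the class shares also count genes that were not tested. Marked genes were mostly expressed ones. Of the genes in the 3 classes 88.8%, 88.1% and 86.5% were expressed, which here means that 4 or more of the 12 NSPC libraries reached 1 TPM, against 28.8% of genes with neither mark. The classes differ in their content of protein-coding genes, which were 16923 of the 33490 genes with neither mark and 805 of the 935 with a shared place. Among protein-coding genes alone 96.6%, 95.9% and 96.0% were expressed, against 52.5% with neither mark.

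The median level was similar in genes with a shared place, Kcr alone and Kac alone, and higher in genes with both marks at separate places. The median TPM over genes with a shared place was 19.01 ± 0.563 in MS-275 libraries and 17.7 ± 0.774 in control libraries (mean and SD over libraries, n = 4 each). For genes with Kcr alone it was 19.3 ± 0.508 in MS-275 libraries and 17.4 ± 0.479 in control libraries, and for genes with Kac alone 18.5 ± 0.375 in MS-275 libraries and 16.8 ± 0.491 in control libraries. For genes with both marks at separate places it was 22.8 ± 0.652 in MS-275 libraries (22.2 to 23.3) and 19.4 ± 0.805 in control libraries, above the other classes in every MS-275 library. The library medians of the other 3 classes overlapped, at 18.3 to 19.5 TPM for shared, 18.7 to 19.8 TPM for Kcr alone and 17.95 to 18.8 TPM for Kac alone in the MS-275 libraries, while the genes of each class spread from a lower quartile of 4.66 to 5.85 TPM to an upper quartile of 46.7 to 47.9 TPM. Among expressed genes alone the medians were 23.2, 24.1 and 24.1 TPM for the 3 classes, against 18.3 TPM for genes with neither mark. In whole-culture RNA, fewer cells of a type and less RNA per cell cannot be told apart.

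Peaks were rarer at the expressed genes of lowest level, with smaller differences among the parts above, and no test was made of this. The expressed genes were split into 4 equal parts by their mean over the 12 libraries. From the lowest part to the highest, a shared place lay at 4.41%, 6.71%, 6.01% and 6.97% of the genes. For Kcr alone these shares were 7.98%, 10.2%, 11.3% and 10.8%, and for Kac alone 9.06%, 12.1%, 12.1% and 13.6%. The median level of the lowest and of the highest part in MS-275 libraries was 2.79 TPM and 88.5 TPM. Neither mark lay within 1 kb of 77.2%, 69.1%, 67.8% and 66.4% of the genes, from the lowest part to the highest.

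The promoters of the 3 classes were alike in base composition. Among expressed genes the median GC content of the 300-base window was 64.3% for shared places, 64.0% for Kcr alone and 63.0% for Kac alone, against 60.3% for neither mark, and the median number of CpG dinucleotides was 23, 23 and 23, against 20. Of 6 motifs searched on both strands, GGGCGG (the GC box) was present in 68.8%, 70.7% and 68.8% of these windows, against 65.6% of all expressed genes' windows and 42.6% of all 20682 windows. CCGGAA, the core bound by ETS factors, was present in 16.8% of shared, 26.4% of Kcr alone and 23.7% of Kac alone windows, against 27.8% of all expressed genes' windows and 17.7% of all windows. CCAAT was present in 30.5%, 36.8% and 33.6%, against 39.2% and 38.3%. TATAAA was present in 5.95%, 5.04% and 6.04%, against 6.62% and 13.2%, TGACGTCA in 2.98%, 4.40% and 2.83%, against 3.31% and 2.23%, and GCATGCGC in 3.27%, 4.58% and 6.67%, against 5.49% and 3.35%. None of these motifs holds another. A match describes these letters in this window and not a bound factor.

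MS-275 changed RNA widely, in marked and unmarked genes. Over all 14857 genes tested with limma on log2(TPM + 1), 37.4% rose and 27.6% fell against control at a Benjamini-Hochberg adjusted p of 0.05. Of the 13773 among them with a position, from which the classes are drawn, 38.9% rose and 28.8% fell. Among tested genes 322 of 830 with a shared place rose (38.8%), 579 of 1388 with Kcr alone (41.7%) and 629 of 1612 with Kac alone (39.0%). Those that fell were 258 (31.1%), 398 (28.7%) and 488 (30.3%). The median log2 fold changes were 0.06, 0.09 and 0.07, against 0.08 over all genes tested. At 2-fold or more, 10.9% of all tested genes rose and 2.53% fell (11.4% and 2.53% of those with a position). The same counts were 85 up (10.2%) and 16 down (1.93%) with a shared place, 172 up (12.4%) and 13 down (0.937%) with Kcr alone, and 151 up (9.37%) and 30 down (1.86%) with Kac alone. The shares that rose or fell at any size lay within a few percentage points of those of all genes in these 3 classes. Falls of 2-fold or more were rarer than among all genes in each of these 3 classes, most so with Kcr alone. Among tested genes with neither mark they made up 2.98%. With log2(TPM + 0.1) these falls numbered 23 with Kcr alone and 490 among all genes, against 13 and 376. Of the 284 tested genes with both marks at separate places, 135 rose (47.5%) and 66 fell (23.2%), 1 of them 2-fold or more (0.352%), a lower share than with Kcr alone. The balance of rises and falls depends on the scaling: with median-of-ratios scaling 301 genes with a shared place fell and fewer rose, and 566 with Kac alone rose and 566 fell.

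**Figure D5:**
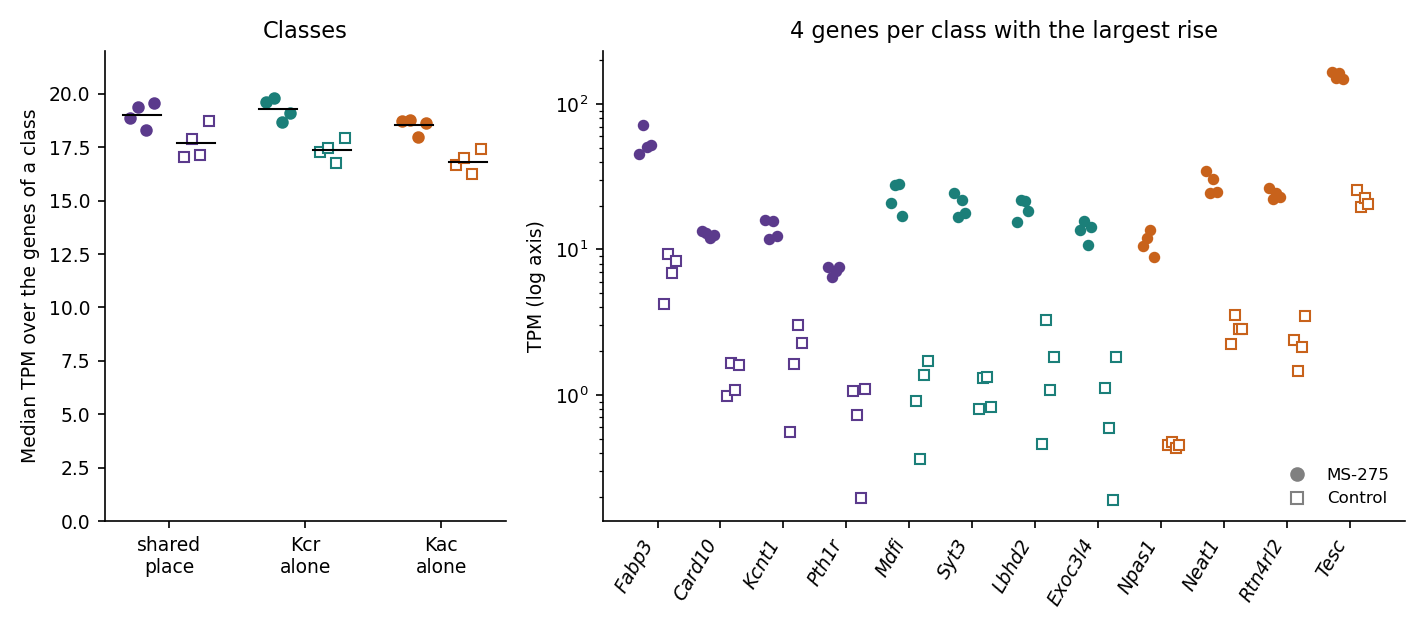
Left, the median TPM over the genes of each class in each of the 4 MS-275 libraries (filled) and 4 control libraries (open), with their means as lines. Right, TPM per library on a log axis for the 4 genes of each class with the largest rise, in which all MS-275 libraries lie above all control libraries.

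Cell type markers bear on all RNA values of single genes. In MS-275 libraries 18 of 18 neural stem cell markers reached 1 TPM, and their sum was 14196 to 14817 TPM in MS-275 libraries and 10203 to 10732 TPM in control libraries. Most of this sum was Fabp7 and Vim, at 6898 and 5970 TPM in MS-275 libraries and 4946 and 3671 TPM in control libraries. Over the list 6 markers rose and 7 fell, beside 37.4% and 27.6% of all genes tested. The summed neuronal list was at 1384 to 1424 TPM in MS-275 libraries and 1136 to 1236 TPM in control libraries, with 16 of 21 markers at 1 TPM and Neurog2, Eomes, Tbr1, Neurod6 and Neurod2 below it. The astrocyte list summed to 919 to 1128 TPM in MS-275 libraries and 688 to 952 TPM in control libraries, and the oligodendrocyte lineage list to 2872 to 3152 TPM in MS-275 libraries and 1702 to 1904 TPM in control libraries. Olig1, at 2300 TPM in MS-275 libraries and 1140 TPM in control libraries, made up most of that difference, and 4 of the 7 tested members rose. The endothelial list summed to 4.64 to 6.30 TPM in MS-275 libraries and 1.10 to 1.55 TPM in control libraries, with Kdr alone of its 6 markers at 1 TPM. No microglial marker of 6 reached 1 TPM, and Aif1 was at 0. The part of cell composition in the RNA results was not tested. In the MS-275 libraries 14565 to 14854 genes of the table reached 1 TPM, against 13444 to 13696 in the control libraries.

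Genes with a shared place included highly expressed progenitor genes. Ckb, the brain creatine kinase that buffers ATP, had both marks upstream of its start, with Kac at chr12:111672602-111672848 and Kcr at chr12:111672749-111673034. Its RNA was at 9003, 10240, 9064 and 10397 TPM in the MS-275 libraries, against 7162, 7940, 7173 and 8357 TPM in the control libraries. The groups did not overlap, and Ckb rose (log2 fold change 0.34 ± 0.07 SE, limma adjusted p = 0.000925). Olig1, a transcription factor of the oligodendrocyte lineage, carried 5 peaks within 1 kb of an end of the gene, 1 overlapping pair and 3 single ones. It stood at 2249, 2385, 2162 and 2406 TPM in the MS-275 libraries, against 1082, 1245, 1065 and 1169 TPM in the control libraries (log2 fold change 1.01 ± 0.06 SE, limma adjusted p = 3.28e-08). Ptma, which encodes prothymosin alpha, and Hspa8, a constitutive chaperone, fell slightly (log2 fold changes -0.22 and -0.12). Dbi, which binds acyl-CoA esters, averaged 3575 ± 144 TPM in MS-275 libraries and 3330 ± 155 TPM in control libraries (SD, n = 4 each), which did not pass the test (limma adjusted p = 0.112), whereas with the replicate block it did (adjusted p = 0.00975).

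The largest rises among genes with a shared place were in Fabp3, Card10, Kcnt1 and Pth1r. Fabp3 was at 45.2, 71.8, 50.8 and 52.3 TPM in the MS-275 libraries, against 4.22, 9.38, 6.88 and 8.27 TPM in the control libraries (log2 fold change 2.80 ± 0.21 SE, limma adjusted p = 1.65e-07). Card10, a scaffold protein of NF-kappa-B signalling, was at 13.4, 13.04, 11.9 and 12.6 TPM in the MS-275 libraries, against 0.990, 1.66, 1.09 and 1.61 TPM in the control libraries. Its Kcr peak, chr15:78802594-78803038, began 4 bp downstream of the start and its Kac peak 427 bp downstream. Kcnt1, a sodium-activated potassium channel, and Pth1r, the parathyroid hormone receptor, rose by 2.45 and 2.24 on the log2 scale. The largest falls were in Ap4s1, a subunit of the AP-4 adaptor complex, Prr18, Cplx2, a complexin of synaptic vesicle release, and Rcbtb2, by -1.79, -1.68, -1.61 and -1.46 on the log2 scale. In all 8 genes every MS-275 library lay beyond every control library, as the choice of genes required.

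The genes with Kcr alone and the highest levels were Rpl23a, Actg1, Rplp1, Ftl1 and Serpine2. Rpl23a and Rplp1, both ribosomal protein genes, averaged 3370 ± 73.0 and 2973 ± 114 TPM in MS-275 libraries, against 3462 ± 58.3 and 3068 ± 213 TPM in control libraries (SD, n = 4 each), and neither passed the test, while with median-of-ratios scaling Rpl23a did (adjusted p = 0.00596). Actg1, cytoplasmic gamma-actin, had its Kcr peak 295 bp upstream at chr11:120348790-120349367 and no Kac peak within 32995 bp. Its RNA was at 2927, 2931, 3139 and 3055 TPM in the MS-275 libraries, above the 2512, 2508, 2635 and 2461 TPM in the control libraries. Ftl1, a ferritin light chain, and Serpine2, a secreted protease inhibitor, rose by 0.29 and 0.75 on the log2 scale. Reads of Rpl23a, Rplp1, Actg1 and Ftl1 can be shared with near-identical pseudogenes, so their levels are uncertain.

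Among genes with Kcr alone, Mdfi, an inhibitor of myogenic and related transcription factors, rose most. It was at 20.8, 27.6, 28.3 and 16.9 TPM in the MS-275 libraries, against 0.904, 0.364, 1.38 and 1.70 TPM in the control libraries (log2 fold change 3.56 ± 0.22 SE, limma adjusted p = 2.91e-08). Syt3, a calcium sensor of vesicle fusion, was at 24.6, 16.8, 21.9 and 17.7 TPM in the MS-275 libraries, against 0.794, 1.31, 1.32 and 0.831 TPM in the control libraries. Lbhd2 and Exoc3l4 rose by 3.04 and 2.98 on the log2 scale. The largest falls were in Spc24, Birc5, Hmgn2 and Ttk. Spc24, a kinetochore subunit, was at 18.7, 15.4, 14.002 and 19.04 TPM in the MS-275 libraries, against 67.9, 59.9, 71.1 and 75.7 TPM in the control libraries. Birc5 (survivin, a chromosomal passenger), Hmgn2 (a nucleosome-binding protein) and Ttk (a spindle checkpoint kinase) fell by -1.56, -1.55 and -1.51 on the log2 scale. The Kcr peak of Birc5, chr11:117848428-117849077, was 650 bp wide and ended 160 bp upstream of the start.

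Genes with Kac alone included 2 radial glia markers at very high level. Fabp7, the brain lipid-binding protein, had Kac peaks 192 and 591 bp downstream of its start, the nearer at chr10:57785115-57785335, and no Kcr peak within 10592 bp. Its RNA was at 6550, 6766, 7105 and 7171 TPM in the MS-275 libraries, against 4814, 5068, 5122 and 4781 TPM in the control libraries (log2 fold change 0.48 ± 0.05 SE, limma adjusted p = 3.09e-06). Vim, the intermediate filament vimentin, was at 5902, 5983, 6156 and 5839 TPM in the MS-275 libraries, against 3625, 3454, 3868 and 3738 TPM in the control libraries. Both rose with no overlap of the groups. Tmsb10, an actin-binding thymosin, and Tpt1, a translationally controlled protein, rose by 0.23 and 0.27 on the log2 scale, Tmsb10 not with median-of-ratios scaling (adjusted p = 0.0570). Tuba1a, an alpha-tubulin, averaged 2270 ± 132 TPM in MS-275 libraries and 2339 ± 71.8 TPM in control libraries and did not pass the test.

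The largest rises with Kac alone were in Npas1, Neat1, Rtn4rl2 and Tesc. Npas1, a transcription factor of neurons, was at 10.6, 11.97, 13.53 and 8.92 TPM in the MS-275 libraries, against 0.449, 0.476, 0.429 and 0.454 TPM in the control libraries (log2 fold change 3.06 ± 0.13 SE, limma adjusted p = 1.19e-09). Neat1, the long non-coding RNA of paraspeckles, was at 34.4, 24.3, 30.5 and 24.9 TPM in the MS-275 libraries, against 2.23, 3.54, 2.83 and 2.86 TPM in the control libraries, with a Kac peak of 623 bp over an end of the gene. Tesc, a calcium-binding protein, was at 166, 150, 162 and 150 TPM in the MS-275 libraries, against 25.6, 19.7, 22.6 and 20.4 TPM in the control libraries, and its Kac peak covered the start. Rtn4rl2, a Nogo receptor homolog, rose by 2.93 on the log2 scale. Hirip3, which interacts with the histone chaperone HIRA, Aven, an inhibitor of apoptosis, Ndc80, a kinetochore subunit, and Timp4, a metalloproteinase inhibitor, fell by -1.94, -1.65, -1.64 and -1.60 on the log2 scale. Ndc80 and Spc24 belong to one kinetochore complex and fell together, one with Kac alone and the other with Kcr alone.

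The gene lists had different numbers of members with a peak within 1 kb of the start, and differences between lists were not tested. Over all tested genes with a position, 29.9% had a peak of either mark after MS-275, against 72.4% in control cells. The counts of rises and falls below stand beside 37.4% rising and 27.6% falling among all genes tested. Of 20 G1/S and DNA replication genes, Ccnd1 alone (cyclin D1, shared place) had a peak after MS-275, against 15 in control cells, and all 20 fell. Of 20 G2/M genes 5 had a peak, against 17 in control cells, and all 20 fell. Kif11, the spindle motor, had Kac alone and was at 34.6, 34.01, 39.2 and 36.8 TPM in the MS-275 libraries, against 107, 110, 110 and 109 TPM in the control libraries. None of 19 imprinted genes had a peak, against 4 in control cells, and 13 of the 17 tested rose. Of 20 interferon and MHC genes B2m alone had one (Kac), against 3 in control cells, and all 16 tested rose. With a window of 5 kb these 4 lists had 2, 5, 0 and 3 members with a peak.

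In the Polycomb and trithorax list 9 of 12 members had a peak after MS-275 and 9 in control cells. Ezh2, the H3K27 methyltransferase, had Kcr alone and was at 77.9, 76.2, 85.9 and 77.4 TPM in the MS-275 libraries, against 159, 177, 168 and 174 TPM in the control libraries. Cbx7, which reads H3K27 methylation, also had Kcr alone but rose, with 15.3, 11.97, 9.83 and 10.7 TPM in the MS-275 libraries, against 3.32, 3.71, 2.85 and 3.18 TPM in the control libraries. Bmi1 and Suz12, Polycomb subunits with Kac alone, fell by -0.88 and -0.41 on the log2 scale. Of 15 class I deacetylase and corepressor genes 9 had a peak after MS-275, against 14 in control cells. On this list 4 rose and 4 fell, beside 37.4% and 27.6% of all genes tested. Ncor1, a corepressor with Kcr alone, was among those that fell. Hdac1, itself inhibited by MS-275, had Kcr alone and was at 187, 192, 197 and 180 TPM in the MS-275 libraries, against 107, 115, 113 and 116 TPM in the control libraries. The demethylase Kdm1a (Kcr alone) rose by 0.32 on the log2 scale.

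Writers and readers of both marks fell or did not pass the test. Of 11 acyltransferase genes 7 had a peak, against 9 in control cells, 7 fell and none rose, where 27.6% of all genes tested fell and 37.4% rose. Kat5 (shared place), Kat6a and Kat2a (both Kac alone) fell by -0.84, -0.24 and -0.21 on the log2 scale, while Ep300 (p300, shared place) averaged 25.4 ± 3.88 TPM in MS-275 libraries and 28.3 ± 2.85 TPM in control libraries. Of 14 acyl-lysine reader genes 5 had a peak, against 12 in control cells, and 11 fell. Brd2, a bromodomain protein with a shared place, fell by -0.53 on the log2 scale, and Brd3, with Kac alone, by -0.64. Of the YEATS and double PHD finger genes on the list, only Mllt3 and Dpf3 had a peak. Mllt3 (YEATS, Kcr alone) averaged 22.7 ± 2.57 TPM in MS-275 libraries and 20.3 ± 4.61 TPM in control libraries (SD, n = 4 each). Dpf3 (double PHD finger, Kac alone) averaged 107 ± 5.30 TPM in MS-275 libraries and 113 ± 7.13 TPM in control libraries. Neither passed the test, while with median-of-ratios scaling Dpf3 did (adjusted p = 0.0118). Those without a peak were Mllt1, Yeats2, Yeats4, Dpf1 and Dpf2. With 11 of the 14 readers falling, Mllt3 and Dpf3 do not stand for the other crotonyl-lysine readers.

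Neural genes carried all 3 kinds of peak. Of 18 neural stem cell genes 4 had a shared place, 3 Kcr alone and 4 Kac alone. With any peak there were 11, against 17 in control cells. Of the same 18 genes 6 rose and 7 fell, beside 37.4% and 27.6% of all genes tested. Notch1 (shared place) rose and Pax6, a patterning factor with Kcr alone, fell, by 0.74 and -0.64 on the log2 scale. Of 21 neuronal genes 6 had a peak, against 6 in control cells, and 13 of the 16 tested rose. Tubb3, neuronal beta-tubulin with Kcr alone, was at 30.7, 26.1, 30.2 and 29.1 TPM in the MS-275 libraries, against 12.5, 10.1, 11.98 and 12.5 TPM in the control libraries. Of 20 synapse genes 2 had a shared place, 5 Kcr alone, none Kac alone and 1 both marks apart, and 16 rose. With any peak there were 8 synapse genes, against 9 in control cells. Dnm1, the neuronal dynamin with Kcr alone, was at 39.7, 39.0, 38.5 and 40.2 TPM in the MS-275 libraries, against 8.31, 7.75, 5.96 and 6.18 TPM in the control libraries.

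Of the remaining lists, 9 of 16 RNA processing, 7 of 18 oxidative phosphorylation, 6 of 16 cholesterol synthesis, 6 of 20 ribosomal protein, 7 of 20 stress, 6 of 14 CDK inhibitor and p53 and 5 of 12 immediate early genes had a peak. In control cells these counts were 16, 17, 15, 19, 14, 12 and 10. All 16 cholesterol synthesis genes fell, where 27.6% of all genes tested did, among them Mvd (Kac alone), by -1.15 on the log2 scale. Srsf2 and Hnrnpa1, splicing factors with Kcr alone, fell by -0.88 and -0.75, and Cdkn1a, the CDK inhibitor p21 with Kac alone, rose by 0.26. Trp53 (shared place) fell by -0.61. B2m, a subunit of MHC class I, rose by 0.95.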

How the data were processed

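The authors aligned ChIP reads with Bowtie2 2.3.5.1, called peaks with MACS2 2.2.5 and quantified RNA with Salmon 1.0.0 on GRCm38, per the submitters' processing notes, which also name DESeq2 1.26.0. For NSPCs the deposited lists give peak positions and no score. Their threshold and control are not given in the sources used here, and no stricter threshold could be set. The forebrain lists hold a fold enrichment per peak, a ratio made by the authors. The TPM values were made by the authors and deposited for 53974 genes. They carry no read counts, and a library's values sum to between 998182 and 999495.

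Overlaps were counted with Python 3.11.15, numpy 2.4.6 and pandas 2.3.3, and intervals with SciPy 1.17.1. Gene starts came from the RefSeq promoter table (GRCm38.p6) for 20682 genes, and both ends stood in for the start of 17503 genes without strand. Positions matched 13773 of the 14857 genes tested (92.7%). The test was that of limma 3.58.1 in R 4.3.3 on log2(TPM + 1). It took the genes that reached 1 TPM in 4 or more of 12 NSPC libraries and fitted MS-275, crotonate and control together (eBayes, trended prior), two-sided, with Benjamini-Hochberg adjustment and a threshold of 0.05. Fold changes on this scale understate the change of low genes. In simulated MS-275 against control data of 14857 genes it recovered 92% of 100 genes changed 2-fold and 33% of 100 changed 1.25-fold, and called 9 of 14657 unchanged genes. The simulation held far fewer changed genes than were called in the data, where 5561 rose and 4107 fell. Its Benjamini-Hochberg cutoff was therefore stricter, and these recoveries and the number of false calls do not carry over to the data. Same-numbered libraries varied together: deviations from the group means correlated in all 4 same-numbered pairs of MS-275 and control libraries, from 0.119 to 0.241. For pairs with different numbers these correlations ran from -0.197 to 0.0993. The fit without a block gives the values reported, so their p-values leave this pairing out, and the replicate block is an alternative. The labels do not say whether the replicates came from separate animals, so p-values measure the spread between these samples.

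Named genes are the 5 with the highest TPM in each class, the 4 per class and direction with the largest change whose groups do not overlap (at least 5 TPM in the higher group, no predicted genes), the genes nearest the 4 widest places of each kind, and 2 members per class of each list with the smallest adjusted p. Results of 3 of these genes are not reported here. The printed promoters are the first gene of this rule with a peak in its window and, chosen after seeing the data, the gene of highest TPM in each class with at least 0.5 of its window under the class's peaks. The members, lists and rules were chosen with earlier results of these data known.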

Additional observations from a re-analysis of the deposited data

Results flagged for a closer look

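In 13 of 242 groups of 4 libraries looked at (the named genes reported here and the class medians, in MS-275 and in control libraries), 1 library stood apart from the other 3 by most of the group's range. Chance sets apart about 1 in 20 groups. Among MS-275 libraries, replicate 1 was low for Gap43 (651 TPM) and high for Brd2 (120.0 TPM) and Ier2 (45.7 TPM). Replicate 2 was low for Tuba1a (2073 TPM) and Stmn3 (124 TPM). Replicate 3 was low for the median over genes with Kac alone (17.95 TPM). Replicate 4 was high for Rcor1 (19.9 TPM) and Sdhb (179 TPM). Among control libraries, replicate 4 was high for Notch1 (69.2 TPM), Kat5 (71.5 TPM) and Apoe (544 TPM), and replicate 1 was low for Kif11 (107 TPM) and Chd4 (173 TPM).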

How the results depend on the processing

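With overlap of at least 0.5 of both peaks, 19.1% of Kcr and 14.8% of Kac peaks were shared, with 0.5 of the peak counted 22.6% and 17.9%, within 500 bp 42.1% and 34.6%, and among peaks of 500 bp or more 13.3% and 10.3%. Among those wide peaks the median widths were 624.5 bp (shared Kcr), 575 bp (lone Kcr), 716 bp (shared Kac) and 594 bp (lone Kac), and with 0.5 of both peaks lone Kcr and shared Kac peaks were at 277 and 304.5 bp. Near-start shares of shared, lone Kcr and lone Kac places were 62.4%, 62.0% and 54.6% within 5 kb, 9.99%, 5.51% and 4.71% touching the start, and, chosen after seeing the data, 39.1%, 38.1% and 32.4% with known strand only and 44.5%, 43.9% and 37.2% with protein-coding genes only. Shared places were wider than lone ones, and the part of width in the shares touching the start was not tested. Median TPM of the 3 classes was 15.98, 15.2 and 14.5 within 5 kb, 16.8, 16.5 and 15.4 over gene bodies, and 23.2, 24.1 and 24.1 among expressed genes (18.3 with neither mark). Chosen after seeing the data, it was 23.96, 24.4 and 24.2 with protein-coding genes (1.58 with neither mark) and 20.2, 21.2 and 21.0 with known strand (0.326 with neither mark). With log2(TPM + 0.1), 23 genes with Kcr alone fell 2-fold or more, against 13, and over all genes 490, against 376. Within 5 kb the median of genes with a shared place was above that of genes with Kcr alone, the other way round than within 1 kb. The cause was not tested.

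With the replicate block 5657 genes rose and 4216 fell, against 5561 and 4107 without it, and it changed the call of Dbi, Gja1 and Sparcl1 among 121 named genes. Leaving out each replicate gave 5227 to 5451 rising and 3906 to 4001 falling genes. Median-of-ratios scaling gave 4916 and 4840, so that 50.4% of calls were rises, against 57.5% as deposited, and moved the median log2 change over all genes to 0.01, against 0.08. With it 301 genes with a shared place fell and fewer rose, so that the balance turned, and 566 with Kac alone rose and 566 fell. Of the named genes 98 kept their call under every setting. The ChIP depth is unknown, and 1 library per mark leaves the overlap shares without a replicate check.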
